A study of Bos taurus with 6 samples.

Results

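The 9 genes described here, ISG15, MX1, MX2, IFIT2, IFIT3, IFI6, RSAD2, IRF7 and IRF1, belong to the interferon response of cattle cells. They were chosen by gene name, and each name was found on 1 of the 32183 gene rows listed for every culture. Earlier results of these data were known when the members and the gene lists below were chosen. Their shares and medians beside those of all tested genes are therefore descriptions and not independent comparisons. Rumen epithelial primary cells (REPC) are cells grown from the lining of the rumen, the fermenting forestomach of ruminants, and all of them came from 1 Holstein bull calf that was 2 weeks old and had received milk replacer as its only feed. RNA was sequenced from 3 control cultures and from 3 cultures 24 h after treatment with 5 mM butyrate, a short-chain fatty acid made by rumen microbes that inhibits histone deacetylases. The study calls the 3 cultures of a group biological replicates. Since a single calf supplied every culture, the p-values measure the spread between these cultures and not between animals.

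Interferons are secreted proteins that warn cells of viral infection. Type I and type III interferons bind receptors that activate JAK kinases and, through them, transcription factors that switch on a large group of interferon-stimulated genes. Some of these genes encode effectors that act on viral RNA, proteins or assembly, and others encode transcription factors of the IRF family that act back on the interferon genes. IRF1, and in many cell types IRF7, can also be expressed without interferon.

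Levels are given as FPKM, the number of sequenced fragments scaled for transcript length and for library size, which allows levels to be compared between genes. Changes were tested with limma on log2(FPKM + 0.1), where the pseudocount of 0.1 shrinks the fold changes of weakly expressed genes. The test covered 15813 genes, those whose FPKM averaged 0.1 or more over the 6 cultures. A gene is said to have risen or fallen where its Benjamini-Hochberg adjusted p over all tested genes was under 0.05. The term DEG is kept for a gene with a Bonferroni-corrected p under 0.05 and a change of more than 2 on the log2 scale. These are the thresholds of the study, which applied them to a Cufflinks test, so a DEG here need not be one there. The summed FPKM was 678035 to 681912 in control and 619401 to 629037 in butyrate cultures, and the deposited confidence bounds imply about 5750384 to 6179746 and 5797093 to 6141171 fragments, respectively.

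Of the 9 members, 6 could be tested and 4 of these rose after butyrate, namely IFI6, ISG15, MX1 and IRF1. IFIT3 and IRF7 did not pass the test, and MX2, IFIT2 and RSAD2 were listed at or near 0 in every culture. None of the 6 fell (limma, 0 also at an unadjusted p under 0.05), although limma without its mean-variance trend called 1 of them, IFIT3, lower. Among all tested genes, 32.5% rose and 25.9% fell, so a rise was common in these cultures. This balance depends on scaling. After quantile normalization 4284 of the 15813 genes rose and 4679 fell, and when rescaled to TPM 5924 rose and 3387 fell. The 6 members passed the filter on their control values alone, and their median change was 1.41 on the log2 scale beside 0.10 for all tested genes. The values of butyrate cultures lay wholly above those of control cultures for 4 members and wholly below for 1, where 36.1% and 28.9% of all tested genes did so.

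**Figure D1:**
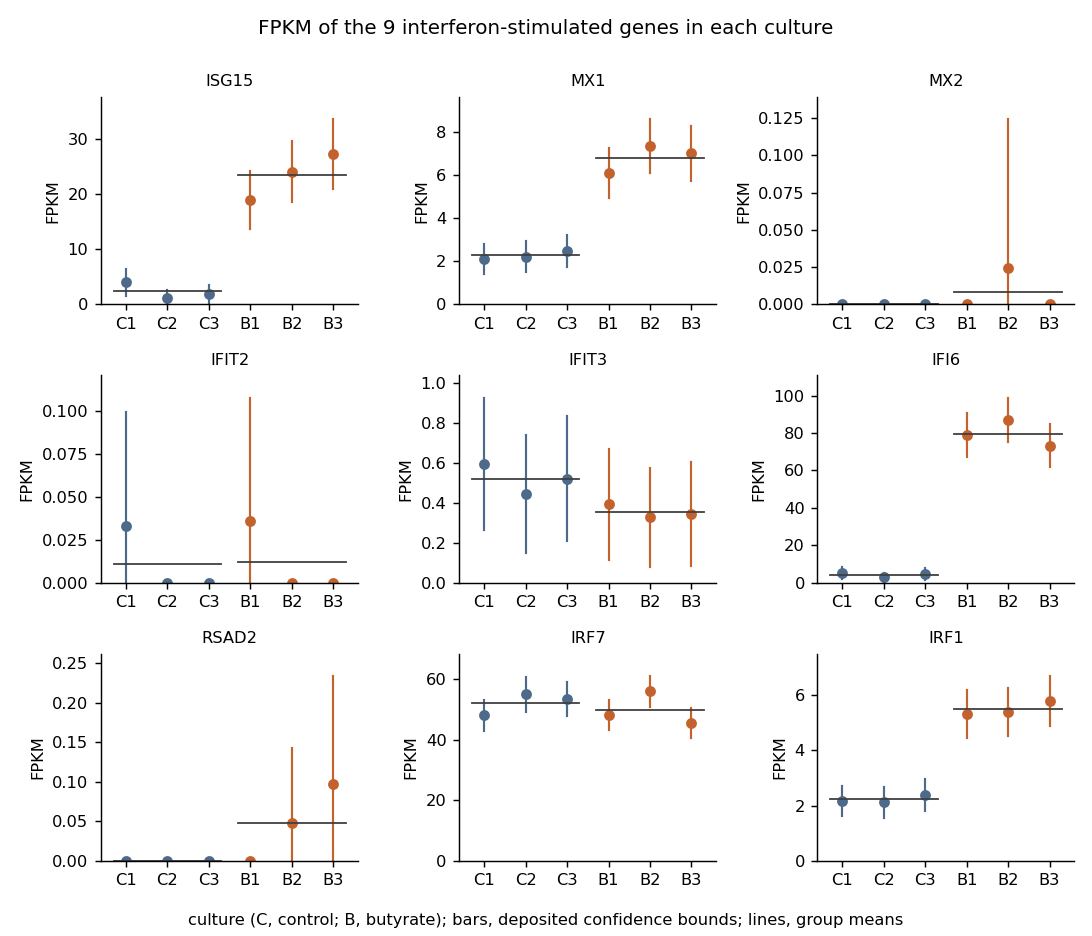
FPKM of the 9 members in the 3 control cultures (C1 to C3, blue) and the 3 butyrate cultures (B1 to B3, orange), with the deposited confidence bounds as bars and the group means as lines. Each panel has its own axis from 0, and ISG15, MX1, IFI6 and IRF1 are the 4 panels in which the bounds of control and butyrate cultures do not overlap.

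IFI6 showed the widest change of the members. It encodes a small hydrophobic membrane protein that limits apoptosis and the replication of some viruses, and it lies on chromosome 2 (chr2:126246507-126250183, UMD3.1). Control cultures 1, 2 and 3 had an FPKM of 5.11, 2.89 and 4.62, and butyrate cultures 1, 2 and 3 had 79.0, 87.0 and 73.3. Every butyrate culture was thus far above every control culture, and the mean went from 4.21 ± 1.17 to 79.8 ± 6.86 (SD, n = 3 each). The log2 fold change was 4.25 (SE 0.19, 95% interval 3.82 to 4.68), a 19.0-fold rise, with an adjusted p of 4.18e-07 by limma. The control values rest on about 5.90 to 10.9 fragments and the butyrate values on about 163 to 210, as implied by the deposited bounds.

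IFI6 was the only member that was a DEG, with a Bonferroni-corrected p of 0.000142, in a background of 2.46% of tested genes that were DEGs with a rise. This call was lost without butyrate replicate 1 (Bonferroni-corrected p by limma 0.0615) or butyrate replicate 2 (0.0822) and also without the trend (0.0666), and the adjusted p of the change stayed at or below 0.000102 with any 1 culture left out. In rank, IFI6 moved from the 52.3rd to the 92.7th percentile of the genes above 0, and its log2 fold change was at the 99.3rd percentile of all tested genes.

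ISG15, a ubiquitin-like protein that is joined to other proteins or secreted, rose next most. Its row spans chr16:52714627-52715654 (UMD3.1). Control cultures 1, 2 and 3 had an FPKM of 3.99, 1.18 and 1.90, and butyrate cultures 1, 2 and 3 had 18.9, 24.1 and 27.2. The groups were well apart, but the controls differed among themselves more than those of MX1 or IRF1, with control 1 the highest.

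The ISG15 mean went from 2.35 ± 1.46 to 23.4 ± 4.19 FPKM (SD, n = 3 each), a log2 fold change of 3.41 (SE 0.37, 95% interval 2.57 to 4.25) with an adjusted p of 6.4e-05 by limma. Control values rest on about 11, 3 and 5 fragments and butyrate values on about 52.7 to 75.1. ISG15 was not a DEG, since its Bonferroni-corrected p by limma was 0.169. It became one without control replicate 1 (0.0446) and also with a minimum mean FPKM of 1 (0.0474). With 1 culture left out, its log2 fold change ranged from 3.02 to 3.86.

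MX1 and MX2 are dynamin-like GTPases that trap viral components, and they stand beside each other on chromosome 1, 10410 bases apart. MX1 (chr1:143166727-143204868, UMD3.1) had an FPKM of 2.12, 2.22 and 2.48 in control cultures 1, 2 and 3 and of 6.09, 7.34 and 7.01 in butyrate cultures 1, 2 and 3. Control values were close to each other, and all butyrate values lay above them. The mean went from 2.27 ± 0.187 to 6.81 ± 0.651 (SD, n = 3 each), a log2 fold change of 1.54 (SE 0.14, 95% interval 1.22 to 1.86) with an adjusted p of 2.23e-05 by limma. MX2 (chr1:143119210-143156317) was listed at 0 in 5 of the 6 cultures and at 0.0242 in butyrate 2, where the deposited bounds imply less than 1 fragment.

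RSAD2, or viperin, a radical SAM enzyme that makes an RNA chain terminator, was also close to 0. Its row is chr11:90012623-90029927 (UMD3.1). It was listed at 0 in the 3 control cultures and in butyrate 1, at 0.0476 in butyrate 2 and at 0.0968 in butyrate 3, which corresponds to 1 and 2 fragments. No change in MX2 or RSAD2 could be detected at this depth. Without the filter on low values, the log2 fold change was 0.10 (SE 0.17, adjusted p 0.637 by limma) for MX2 and 0.51 (SE 0.27, adjusted p 0.175) for RSAD2.

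IFIT2 and IFIT3 encode tetratricopeptide-repeat proteins that bind RNA or each other and hold back viral translation. They lie 10844 bases apart on chromosome 26, at chr26:11064644-11072423 and chr26:11083267-11090210 (UMD3.1). IFIT3 had an FPKM of 0.596, 0.443 and 0.520 in control cultures 1, 2 and 3 and of 0.391, 0.328 and 0.343 in butyrate cultures 1, 2 and 3. The butyrate values were all below the control values, yet the deposited confidence bounds of the groups overlapped, with 7 to 13 fragments behind each value.

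The IFIT3 mean was 0.520 ± 0.0761 in control and 0.354 ± 0.0330 after butyrate (SD, n = 3 each), and the log2 fold change of -0.44 (SE 0.29, 95% interval -1.11 to 0.22) did not pass the test (adjusted p 0.221 by limma). It passed without the trend (adjusted p 0.0239) and after quantile normalization (-1.21, adjusted p 0.00746). IFIT2 was listed at 0.0331 in control 1 and 0.0359 in butyrate 1, 1 fragment each, and at 0 in the other 4 cultures. Without the filter its log2 fold change was 0.01 (SE 0.22, adjusted p 0.981 by limma).

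Both IFIT rows lie inside the row of LIPA, lysosomal acid lipase (chr26:10988284-11117493), which rose from 12.6 ± 0.408 to 22.7 ± 1.31 FPKM (SD, n = 3 each; log2 fold change 0.85, adjusted p 2.22e-05 by limma). Whether counting used strand is not given in the sources used here, so reads from overlapping rows may not be told apart.

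IRF1 and IRF7 are the 2 transcription factors among the members. IRF1, which activates interferon, antigen presentation and growth-arrest genes, is at chr7:23235569-23243679 (UMD3.1). Its FPKM was 2.16, 2.13 and 2.39 in control cultures 1, 2 and 3 and 5.31, 5.39 and 5.80 in butyrate cultures 1, 2 and 3. The values within each group were close, and the groups were well apart.

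The IRF1 mean went from 2.23 ± 0.144 to 5.50 ± 0.262 FPKM (SD, n = 3 each), a log2 fold change of 1.27 (SE 0.13, 95% interval 0.96 to 1.57) with an adjusted p of 5.6e-05 by limma. An uncharacterized gene, LOC107132617, overlaps the IRF1 row (chr7:23237737-23314073). It had 0.905 ± 0.608 FPKM in control and 0.946 ± 0.730 after butyrate (SD, n = 3 each), with no detectable difference (adjusted p 0.959 by limma).

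IRF7, which drives the transcription of type I interferon genes once it is phosphorylated, had by far the highest control level of the members (chr29:50903673-50906833, UMD3.1). Its FPKM was 48.1, 55.1 and 53.5 in control cultures 1, 2 and 3 and 48.2, 56.1 and 45.7 in butyrate cultures 1, 2 and 3. The groups overlapped, with the highest and the lowest value both in butyrate cultures. The log2 fold change was -0.07 (SE 0.09, 95% interval -0.27 to 0.13, adjusted p 0.545 by limma), and its sign turned to 0.06 when the values were rescaled to TPM. About 341 to 486 fragments stand behind each IRF7 value, many more than behind the other members' control values.

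**Figure D2:**
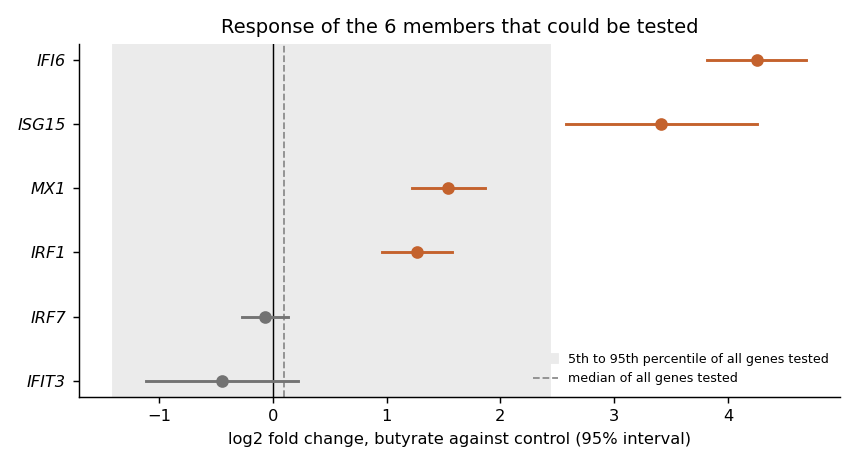
Log2 fold change of the 6 members that could be tested, butyrate against control, with 95% intervals from limma. Orange marks those that rose, grey those that did not pass, the grey band the range from -1.4 to 2.44 that holds all but the outermost twentieths of the tested genes, and the dashed line their median. IFI6 (4.25) and ISG15 (3.41) lie beyond the band.

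The order of the members by level changed with treatment. In control cultures IRF7 stood alone at the top, and IFI6, ISG15, MX1 and IRF1 followed with ranges that overlapped from each gene to the next, while IFIT3 was lower and IFIT2, MX2 and RSAD2 were at or near 0. In butyrate cultures the order was IFI6, IRF7, ISG15, MX1, IRF1 and IFIT3, with no overlap between neighbours in that order. The 3 members at or near 0 again could not be ordered.

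Related members were compared by their log2 ratio within a culture, in 3 pairs. This ratio largely removes the library scaling where both members lie well above the pseudocount, as IRF7 and IRF1 alone do. IRF7 stood 22.3 to 25.9 times above IRF1 in FPKM in control cultures and 7.88 to 10.4 times in butyrate cultures, and the log2 ratio went from 4.49 ± 0.122 to 3.16 ± 0.200 (SD, n = 3 each; difference -1.33 on the log2 scale, SE 0.14). The log2 ratio of MX1 to MX2 differed by 1.44 (SE 0.10) and that of IFIT2 to IFIT3 by 0.45 (SE 0.12) between butyrate and control, but both rest on the pseudocount since MX2 and IFIT2 were at or near 0. Each pair gave p = 0.1 by an exact two-sided permutation test (0.1 also when adjusted over the 3 pairs), the smallest that 3 against 3 cultures allow. With a pseudocount of 0.01 the exact p was 0.3 for MX1 and MX2 (difference 0.99) and 0.5 for IFIT2 and IFIT3 (0.57), and with a pseudocount of 1 the difference for IFIT2 and IFIT3 was 0.17. For IRF7 and IRF1 the exact p stayed at 0.1 with either, with differences of -1.37 and -1.08.

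ISG15 is joined to its targets by a chain of enzymes, and all 5 enzymes listed for this step rose, beside 32.5% of all tested genes. UBA7, the activating enzyme, had 0.979 ± 0.325 FPKM in control and 1.92 ± 0.224 after butyrate (SD, n = 3 each; log2 fold change 0.94, adjusted p 0.0124 by limma). UBE2L6, the conjugating enzyme, had 2.63, 2.08 and 2.01 FPKM in control cultures 1, 2 and 3 and 8.50, 10.1 and 9.26 in butyrate cultures 1, 2 and 3. The groups of UBE2L6 were well apart, its log2 fold change was 2.01 (SE 0.15, adjusted p 6.13e-06 by limma), and it was the only one of the 5 that was a DEG (Bonferroni-corrected p 0.00787). That DEG call lay at the threshold of 2: it was kept without control replicate 1 and lost without any 1 of the other 5 cultures (log2 fold change down to 1.94, Bonferroni-corrected p by limma up to 0.641). It was also lost after quantile normalization (log2 fold change 1.84), with a pseudocount of 1 (1.67), and, by the Bonferroni-corrected p, with no filter (0.0777), without the trend (0.182) and with the replicate number as a block (0.152).

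Among the ligases, HERC5 went from 3.96 ± 0.391 to 8.07 ± 0.92 FPKM, HERC6 from 14.7 ± 1.09 to 24.7 ± 1.43 and TRIM25 from 13.4 ± 1.30 to 19.5 ± 0.387 (SD, n = 3 each). Their log2 fold changes were 1.01, 0.75 and 0.54, with adjusted p of 0.000215, 8.39e-05 and 0.000843 by limma. USP18, the protease that takes ISG15 off its targets and also damps interferon receptor signalling, rose from 4.94 ± 0.415 to 9.84 ± 1.65 FPKM (log2 fold change 0.97, adjusted p 0.000461). The median log2 fold change of the 5 attaching enzymes was 0.94. The UBA7 call was lost without butyrate replicate 2 or 3 (adjusted p up to 0.0532) and after quantile normalization (0.109).

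**Figure D3:**
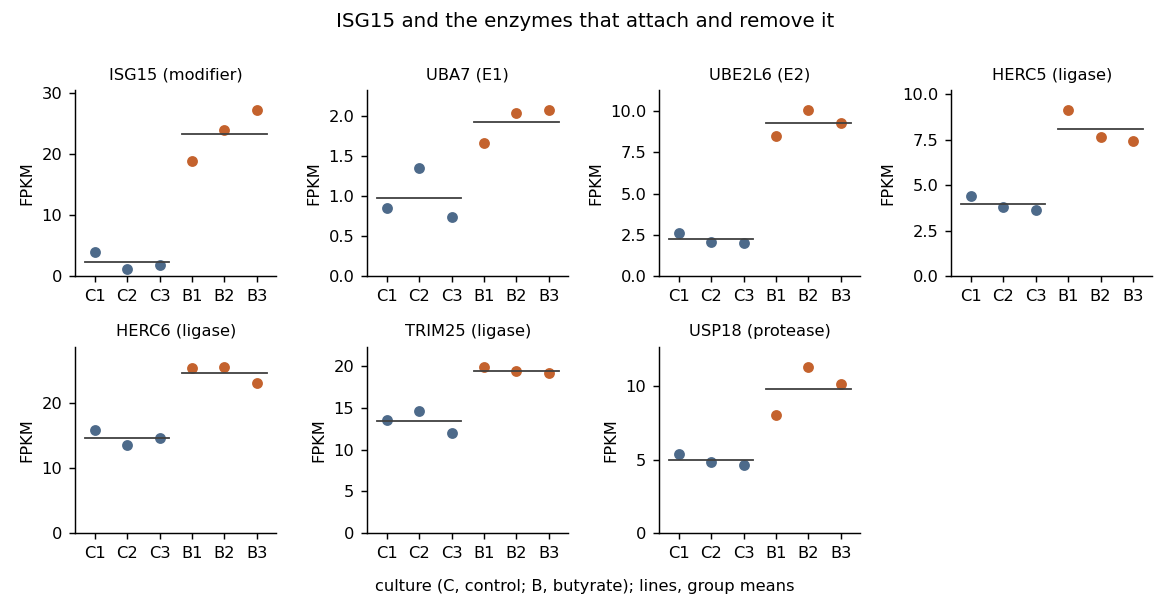
FPKM of ISG15, of the 5 enzymes that attach it (UBA7, UBE2L6, HERC5, HERC6, TRIM25) and of USP18, which removes it, in control cultures (C1 to C3, blue) and butyrate cultures (B1 to B3, orange), with group means as lines and axes from 0. All 3 butyrate values are above all 3 control values in each panel, as they are for 36.1% of all tested genes.

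The interferons themselves were almost undetected. Of 14 interferon genes matched by name, 12 were listed at 0 in all 6 cultures, IFNB1 was above 0 in control 1 alone (0.223 FPKM) and IFNK in butyrate 3 alone (0.112 FPKM). No ligand passed the filter, and another 11 listed ligand names were not analysed here. These values do not show what the cells had secreted earlier.

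Receptors and signal carriers were present. Of the 11 genes for interferon receptors, JAK kinases and STAT factors, 8 rose, 0 fell (limma, 0 also at an unadjusted p under 0.05 and without the trend) and 3 did not pass, with a median log2 fold change of 0.53, beside 32.5% of all tested genes that rose and 25.9% that fell. IFNLR1, the receptor chain for type III interferon, went from 0.766 ± 0.0739 to 1.73 ± 0.339 FPKM and IFNAR2, of the type I receptor, from 7.35 ± 0.784 to 13.3 ± 1.77 (SD, n = 3 each; adjusted p 0.00403 and 0.000475 by limma). STAT2, a transcription factor of the type I response, went from 6.64 ± 0.0535 to 11.4 ± 1.22 FPKM (SD, n = 3 each; adjusted p 0.000332 by limma). IFNGR2, a chain of the receptor for interferon gamma, had 76.2 ± 3.16 and 75.2 ± 3.94 FPKM (adjusted p 0.779). The IFNLR1 call was lost after quantile normalization (adjusted p 0.0639 by limma).

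Of the 7 other IRF genes, 6 were tested, and 3 rose, 0 fell (limma, 0 also at an unadjusted p under 0.05, 1 without the trend) and 3 did not pass, beside 32.5% of all tested genes that rose. IRF9, a partner of STAT2, went from 8.29 ± 2.14 to 12.7 ± 0.776 FPKM (SD, n = 3 each; adjusted p 0.0148 by limma) and IRF3, which is activated by viral nucleic acid sensing, from 69.5 ± 1.46 to 78.3 ± 3.59 (adjusted p 0.0218). The call of IRF9 was lost without butyrate replicate 1 or 2 (adjusted p up to 0.0748), and that of IRF3 without control replicate 1 or 2 or butyrate replicate 1 or 2 (up to 0.0636), so that 1 to 3 of these genes rose with 1 culture left out.

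Of 12 tested sensors of viral nucleic acid and their adaptors, 3 rose, 4 fell and 5 did not pass, with a median log2 fold change of -0.02. These shares, 25% and 33.3%, are near the 32.5% and 25.9% of all tested genes. The 3 that rose are the RIG-I-like receptors of cytosolic RNA, IFIH1 (0.204 ± 0.0925 to 0.717 ± 0.107 FPKM), DDX58 (2.10 ± 0.203 to 3.72 ± 0.351) and DHX58 (2.72 ± 0.409 to 4.18 ± 0.770), with adjusted p of 0.00704, 0.00244 and 0.0239 by limma. MB21D1, the DNA sensor cGAS, fell by 1.86 on the log2 scale (0.966 ± 0.185 to 0.194 ± 0.0495 FPKM, adjusted p 0.000907) and TLR3, the endosomal RNA receptor, fell by 1.51 (1.55 ± 0.346 to 0.480 ± 0.132, adjusted p 0.00206). MYD88, an adaptor of other Toll-like receptors, fell from 36.1 ± 0.620 to 25.3 ± 1.18 FPKM (adjusted p 0.000136). After quantile normalization IFIH1 (adjusted p 0.12 by limma) and DHX58 (0.111) no longer passed, and DHX58 also failed without control replicate 3 or butyrate replicate 1 or 3 (adjusted p up to 0.0975).

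Among 5 feedback inhibitors, USP18 and SOCS3 rose, PTPN2 fell and 2 did not pass, shares of 40% and 20% beside 32.5% and 25.9% of all tested genes. SOCS3, an inhibitor of JAK kinases, went from 3.51 ± 0.166 to 5.16 ± 0.786 FPKM (SD, n = 3 each; adjusted p 0.012 by limma), a call lost after quantile normalization (0.0548). PTPN2, a phosphatase of JAK and STAT proteins, went from 42.2 ± 1.56 to 34.9 ± 4.46 FPKM (adjusted p 0.0274), and this call held only without butyrate replicate 3 when 1 culture was left out (adjusted p up to 0.107), and was lost when rescaled to TPM (0.159) and after quantile normalization (0.0779).

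**Figure D4:**
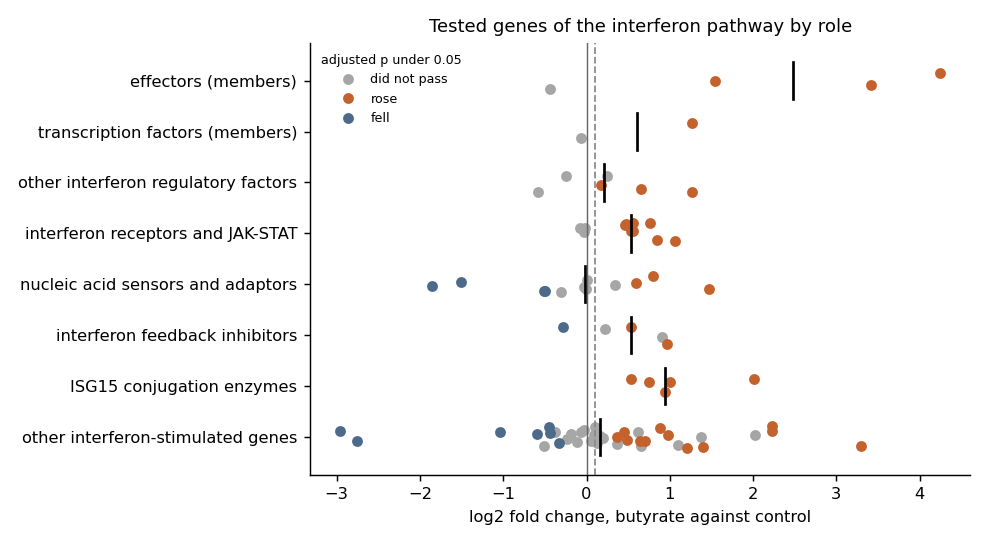
Log2 fold change, butyrate against control, of each tested gene of the interferon pathway by role, with genes that rose in orange, genes that fell in blue and the rest in grey. Short black lines are list medians and the dashed line is the median of all tested genes (0.10). The 5 ISG15 conjugation enzymes all lie above 0, while sensors and other interferon-stimulated genes spread to both sides.

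The other interferon-stimulated genes rose about as often as all tested genes did. Of 51 such genes matched by name, 39 were tested, and 12 rose, 7 fell and 20 did not pass, which is 30.8% and 17.9% beside 32.5% and 25.9% of all tested genes. Their median log2 fold change was 0.16. C1S, a complement protease, went from 0.926 ± 0.364 to 9.69 ± 2.23 FPKM (SD, n = 3 each; log2 fold change 3.30, adjusted p 2.04e-05 by limma). IFI16, a nuclear DNA sensor, went from 0.391 ± 0.265 to 1.99 ± 0.160 FPKM (adjusted p 0.00116). Of the 39, 3 passed the filter on low values only through their butyrate cultures, and among the other 36 genes 11 rose, 7 fell and 18 did not pass. LGALS9, the lectin galectin-9, is one of those 3, with 0.0996 ± 0.0983 FPKM in control and 0.80 ± 0.362 after butyrate, given here as values with no test. A further LGALS9 row was at 0 in every culture.

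The genes that fell furthest in that list were CXCL11 and CXCL9, which encode chemokines that attract T cells. CXCL9 had 130.8, 117.2 and 107.1 FPKM in control cultures 1, 2 and 3 and 20.1, 17.3 and 15.0 in butyrate cultures 1, 2 and 3, a log2 fold change of -2.76 (SE 0.11, adjusted p 2.7e-07 by limma). CXCL11 went from 7.16 ± 2.93 to 0.813 ± 0.318 FPKM (log2 fold change -2.96, adjusted p 0.000101). CXCL10, a chemokine of the same kind named here after its values were seen, had 39.5 ± 3.39 FPKM in control and 35.5 ± 9.84 after butyrate with overlapping groups (log2 fold change -0.19, adjusted p 0.40 by limma). NMI, which binds STAT and MYC proteins, went from 27.1 ± 1.93 to 13.1 ± 1.49 FPKM (log2 fold change -1.04, adjusted p 3.52e-05). Every butyrate value of CXCL9, CXCL11 and NMI was below every control value, as for 28.9% of all tested genes. IFI6 and ISG15 showed the opposite.

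The highest mean levels in the list, above that of every member, were those of IFITM3 and LGALS3BP. IFITM3, which blocks viral entry, had 298.9 ± 14.3 FPKM in control and 319.2 ± 3.16 after butyrate (SD, n = 3 each; adjusted p 0.0903 by limma). It passed as higher when rescaled to TPM (adjusted p 0.00215 by limma), after quantile normalization (0.000352) and without control replicate 2 (0.0423). A further IFITM3 row had 4.14 ± 1.76 and 4.92 ± 4.13, and how reads were split between both rows was not tested. LGALS3BP, a secreted glycoprotein, rose from 161.0 ± 5.55 to 206.8 ± 5.91 FPKM (log2 fold change 0.36, adjusted p 0.000148). The number that fell was 4 rather than 7 without control replicate 1 or butyrate replicate 3, and also when rescaled to TPM.

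**Figure D5:**
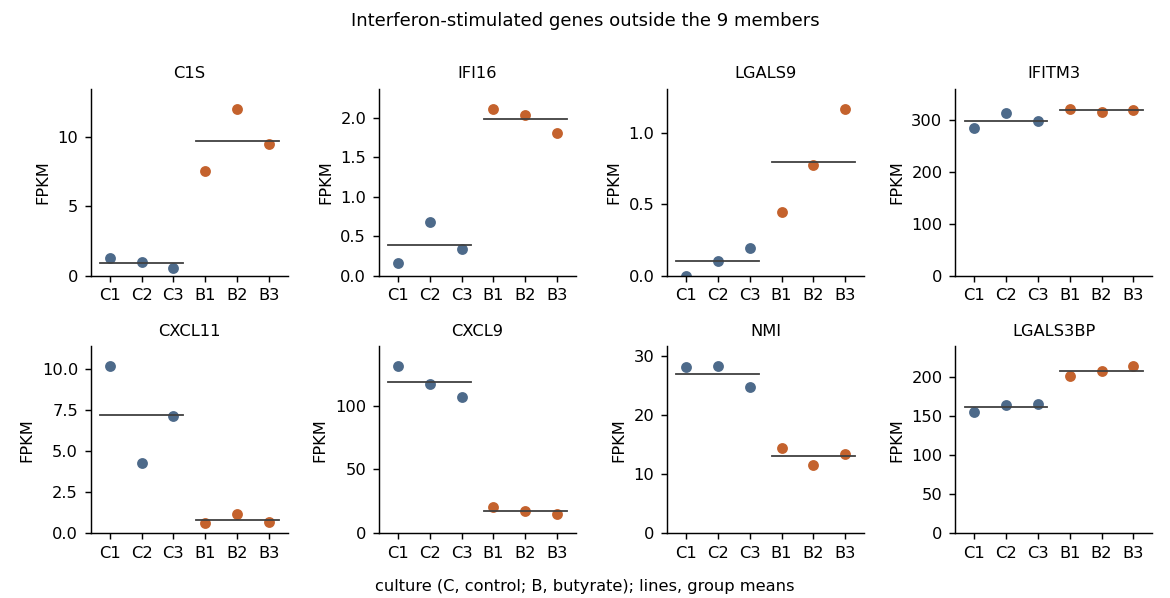
FPKM of 8 interferon-stimulated genes outside the 9 members in control cultures (C1 to C3, blue) and butyrate cultures (B1 to B3, orange), with group means as lines and axes from 0. C1S, IFI16 and LGALS3BP rose, CXCL11, CXCL9 and NMI fell, IFITM3 did not pass the test on the deposited scale, and LGALS9 passed the filter on low values only through its butyrate cultures.

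Genes that flank the members on the chromosome were looked at in the same way. Of 14 that are not members, 10 were tested, but 3 of these (CDHR5, FGR and LOC100139670) passed the filter on low values only through their butyrate cultures and are left out of the count. Of the other 7, 6 rose and 1, PHRF1, did not pass, beside the 32.5% of all tested genes that rose. ISG15 is flanked by AGRN at 2130 bases (log2 fold change 1.14, adjusted p 1.73e-05 by limma), which encodes the basement membrane protein agrin, and by HES4 at 7764 bases (2.09, adjusted p 0.000819), a transcriptional repressor. RSAD2, itself at or near 0, is flanked by CMPK2 at 12320 bases, a nucleotide kinase that is also interferon-stimulated, which rose by 0.64 (adjusted p 0.0144 by limma), a call lost after quantile normalization (0.167). IRF7 is flanked by PHRF1 at 549 bases (log2 fold change 0.08, adjusted p 0.582 by limma) and by CDHR5 at 998 bases, which had a mean FPKM of 0.0787 in control and 0.626 after butyrate.

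Over the 6 cultures, the genes whose log2 profile lay closest to that of IRF1 were GLB1, the lysosomal beta-galactosidase (root mean square difference 0.04), ADHFE1 (0.05) and RAB13 (0.06). Those closest to ISG15 were C13H20orf96 (0.22), TUBA1D (0.23) and RNF183 (0.24). None of the 6 is in the interferon lists, and likeness over 6 cultures in 2 groups is mainly likeness in the size of the change.

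Markers of cell types moved with treatment too. The 7 epithelial markers summed to 1932 to 2041 FPKM in control and 3088 to 3138 in butyrate cultures, and the 8 fibroblast markers to 4333 to 4490 and 6281 to 6628. KRT8 (1380 ± 61.4 to 1971 ± 35.1) and KRT14 (72.5 ± 2.19 to 500.0 ± 48.1) carried the rise of the epithelial sum. KRT5 fell from 400.8 ± 30.6 to 355.9 ± 8.83 (adjusted p 0.0323 by limma), CDH1 had 49.8 ± 1.49 and 48.9 ± 2.11 (adjusted p 0.707), and EPCAM rose from 0.540 ± 0.174 to 3.33 ± 0.581 (adjusted p 5.58e-05). In control cultures COL1A1 was at 1149 ± 34.9 FPKM, VIM at 2464 ± 61.0, COL1A2 at 459.3 ± 18.2 and COL3A1 at 313.3 ± 8.94 (SD, n = 3 each). The rest of the fibroblast list was far lower, with DCN at 6.9 ± 0.435, PDGFRA at 0.306 ± 0.0972, LUM at 0.149 ± 0.171 and PDGFRB at 0.0203 ± 0.0352. Some epithelial and some mesenchymal markers were thus high. After butyrate all 7 tested fibroblast markers and 5 of the 7 epithelial markers rose, beside 32.5% of all tested genes. The 7 immune cell markers summed to 5.29 to 7.15 and 7.43 to 9.52 FPKM, with PTPRC at 0 in every culture and CD14 making up most of the sum. The 3 endothelial markers summed to 1.95 to 2.07 and 6.47 to 8.41, with CDH5 at 0 in every culture. PECAM1 rose from 1.54 ± 0.199 to 3.95 ± 0.922 FPKM and VWF from 0.456 ± 0.173 to 3.3 ± 0.307 (adjusted p 0.000821 and 3.72e-05 by limma). In RNA from whole cultures, fewer cells of a type and less RNA per cell cannot be told apart, and the part of cell composition in the values of IFI6, ISG15, MX1 and IRF1 was not tested.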

How the data were processed

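The authors trimmed the reads with Trim Galore 0.4.1, aligned them with STAR, kept uniquely mapped reads and deposited gene-level FPKM with confidence bounds from Cufflinks, 1 table per culture. The submitters' processing notes name UMD3.1. Uniquely mapped reads undercount genes with near-identical copies.

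Rows were joined by gene ID and position, and 2 rows with a failed estimate were left out. limma 3.58.1 (R 4.3.3) with a mean-variance trend tested log2(FPKM + 0.1) over the 15813 genes averaging 0.1 FPKM or more, 3 control against 3 butyrate cultures. Within-culture ratios had exact permutation tests (scipy 1.17.1). Fragments behind a value were approximated from the deposited confidence bounds. Of the low values in a culture, 53.15% to 55.2% came within 0.1 of a whole number, so the fragment numbers are rough. Starts were converted to count from 1. Chromosome names came from a majority of gene names in RefSeq's table for the ARS-UCD2.0 assembly, used for names alone.

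The 9 members and all gene lists were chosen with earlier results of these data known. Named were the members and, per list, up to 3 called genes with the largest change in each direction and the 2 with the highest level, chosen by rule, with a name on several rows taken at its highest mean FPKM. Some genes that the rule picks are counted in their lists and not reported here by name. Cell type markers, flanking and overlapping genes are named besides.

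Replicate numbers come from the labels. Deviations of same-numbered cultures correlated at 0.02, 0.00 and 0.00 across genes, so no pairing was used. The alternatives tried were pseudocounts of 0.01 and 1, no filter or a minimum of 1, no trend, rescaling to TPM, quantile normalization, a log2 threshold of 1, a replicate block and each culture left out. The scripts were tested on simulated data. The study's own differential test was not rerun.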

Additional observations from a re-analysis of the deposited data

How the results depend on the processing

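The number of members that rose was 4 under every alternative run. The number that fell went from 0 to 1, IFIT3, without the trend and after quantile normalization, and IRF7 changed sign when rescaled to TPM (0.058), with no call. Of 83 values of single members under alternatives, 80 kept direction and side of the threshold. Upregulated DEGs among the members numbered 1, and 2 with a minimum FPKM of 1 or a log2 threshold of 1, 0 without the trend, and 0 to 2 with 1 culture left out. A minimum FPKM of 1 left no value for IFIT3.

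Other IRF genes that fell went from 0 to 1 without the trend and after quantile normalization, and 1 to 3 rose with 1 culture left out. Sensors that rose went from 3 to 1 after quantile normalization. Feedback inhibitors that fell went from 1 to 0 without the trend, when rescaled to TPM and after quantile normalization, and were 0 to 1 with 1 culture left out. Other interferon-stimulated genes that fell went from 7 to 4 when rescaled to TPM, and were 4 to 7 with 1 culture left out. The causes were not tested.

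Among all genes, upregulated DEGs went from 389 to 213 with no filter, 213 without the trend, 226 with the replicate block, 715 with a log2 threshold of 1, and 100 to 232 with 1 culture left out. DEGs with a fall numbered 238, and 141 without the trend, 683 with a log2 threshold of 1, and 122 to 159 with 1 culture left out. With the replicate block, 4 members rose, and 4956 genes rose and 4015 fell in all, beside 5144 and 4091 without it. The pair differences kept their size under the block, with p = 0.25 by an exact sign-flip test, the smallest that 3 pairs allow. The replicate numbers are not shown to pair the cultures. The median log2 fold change of all tested genes was 0.10, and it was 0.23 when rescaled to TPM and -0.05 after quantile normalization. The depth limits MX2, IFIT2, RSAD2 and IFIT3 most.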
